A study of Mus musculus with 4 samples.

Results

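Excitation-contraction coupling genes encode the proteins that turn the electrical signal of a muscle fibre into a release of calcium. Of the genes of this machinery, 10 were examined by name in skeletal muscle of mice without AMPKα2: Cacna1s, Cacna2d1, Cacnb1, Cacng1 and Stac3 of the voltage sensor, Ryr1, Trdn and Asph of the calcium release channel and its surroundings, and Jph1 and Jph2 of the membrane junction. Each was found by its symbol, with every start site assigned to it, and all 10 had at least 1 site, among 9838 genes. Together they held 279 of the 42207 start sites and 33842 reads, of which Trdn took 56.7% and Ryr1 19.2%.

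Total RNA came from the gastrocnemius of adult male AMPKα2-/- mice on a C57BL/6 background (KO, n = 2 libraries) and from their male wild-type controls (WT, n = 2 libraries). Both groups were untreated as far as the sources say. AMPKα2 is a catalytic subunit of AMP-activated protein kinase, which senses the energy state of the cell, and the KO allele lacks DNA for a portion of the catalytic domain. Whole transcriptome start site sequencing (WTSS-seq) reads the 5′ end of reverse-transcribed RNA depleted of ribosomal RNA. The authors listed alternative start sites (ASSs), each given as a stretch of bases. They described the clustering of reads into sites for 3′ ends only. No step that selects capped RNA was described, so a site may mark the start of a transcript or of a fragment.

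A skeletal muscle fibre is excited at its surface, and the signal travels inward along the transverse tubules. There the L-type calcium channel, also called the dihydropyridine receptor, senses the voltage and couples to the ryanodine receptor RYR1 in the facing membrane of the sarcoplasmic reticulum, which lets calcium out to start contraction. Junctophilins hold the 2 membranes together, triadin and junctin (a product of Asph) anchor the calcium store protein calsequestrin near the release channel, and STAC3 is needed for the sensor to work with RYR1.

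The DNA just upstream of the genes of the sensor, the release channel and the junction is shown first, because few of the counted reads of these genes began near it. The bases below lie outside the RefSeq span of each gene, on the strand of the gene in GRCm38.p6, and capitals mark the E-box CANNTG, a motif bound by muscle regulatory factors such as MyoD. They lie at chr1:136052561-136052805 (Cacna1s, plus strand), chr7:29125180-29125401 (Ryr1, minus strand) and chr2:163398050-163398243 (Jph2, minus strand).
Cacna1s: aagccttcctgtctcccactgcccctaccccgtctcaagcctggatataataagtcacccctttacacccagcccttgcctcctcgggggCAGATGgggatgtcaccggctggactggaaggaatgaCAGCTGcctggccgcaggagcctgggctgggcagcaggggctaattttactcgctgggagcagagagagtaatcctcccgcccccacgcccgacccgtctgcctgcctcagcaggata
Ryr1: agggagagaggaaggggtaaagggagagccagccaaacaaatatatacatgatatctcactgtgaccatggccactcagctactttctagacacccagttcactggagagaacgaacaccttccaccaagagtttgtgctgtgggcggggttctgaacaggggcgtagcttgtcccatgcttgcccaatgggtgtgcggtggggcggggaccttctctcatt
Jph2: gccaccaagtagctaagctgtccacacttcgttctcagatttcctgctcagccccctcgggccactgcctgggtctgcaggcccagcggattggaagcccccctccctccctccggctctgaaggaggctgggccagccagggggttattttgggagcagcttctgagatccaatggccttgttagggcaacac

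The Cacna1s stretch of 245 bases held 2 E-boxes, and 65.7% of 32851 RefSeq promoter windows of that length held at least 1. The Ryr1 stretch of 222 bases held no E-box (62.4% of windows of its length held 1 or more) and 2 matches to the GC-box GGGCGG on either strand (28.8% of windows). The Cacna1s stretch held 1 such GC-box match (32.1% of windows of its length). The Jph2 stretch of 194 bases held no match to E-box, GC-box or the TATA-box TATAAA, where 58%, 23.6% and 8.9% of windows of its length did. It ends upstream of the RefSeq starts of Jph2 at 163397993 and 163397973. The 250 bases before each of these starts held 1 E-box and 1 GC-box, in bases not printed here. Of all windows of 250 bases, 66.2% held an E-box and 32.7% a GC-box. These matches describe letters in the stretches and windows only. None of the 3 stretches was overlapped by a listed start site, and sites with under 10 reads in all are not listed.

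The libraries differed in depth, from 1300069 and 1568945 reads in WT to 2303294 and 2900279 in KO, so that 3 reads, taken here as the floor, stood for 1.03 to 2.31 reads per 1000000 (ppm) of a library. Intervals and floors cover counting error only, since PCR copies were not told apart. Prkaa2, the targeted gene, had 149 and 182.6 normalized counts in KO against 152.8 and 185.6 in WT (log2 fold change −0.03 with SE 0.50, adjusted p = 0.994 by DESeq2), so its summed reads gave no check of the labels. The tissue label was met by the muscle markers, all 14 of which were present at a summed 39097 and 40620 ppm in KO and 34780 and 45453 ppm in WT (0 called, median log2 fold change −0.06). Of the fast fibre list all 12 were present at 18662 to 28631 ppm (0 called, median −0.08), and of the slow fibre list 9 of 10 at 694.8 and 854.9 ppm in KO and 310 and 692.2 ppm in WT (0 of 8 tested called, 7 higher in KO, median 0.53). Of the cardiac list 4 of 9 were present, at 24.31 to 101.3 ppm, with Nppa, Nppb, Tnnt2, Tnni3 and Myl7 without a site (1 tested, median −1.11). Fibroblast markers (13 of 14 present) summed to 2224 and 2060 ppm in KO and 3312 and 3058 ppm in WT, with 0 of 12 tested higher in KO, 1 called lower and a median of −0.62. Adipocyte markers (11 of 12) ran from 1933 to 3785 ppm (0 of 8 called, median −0.31), endothelial markers (6 of 8) from 130 to 167.6 ppm (0 of 4 called, median 0.14), blood and immune markers (5 of 9) from 49.65 to 167.7 ppm (0 of 3 called, median −1.38), and Schwann cell and nerve markers (4 of 7) from 15.3 to 50 ppm (0 of 1 called, median −2.78). How far such differences in tissue makeup entered the results below was not tested, and in bulk muscle fewer cells of a type and less RNA per cell cannot be told apart.

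Pooled over the excitation-contraction coupling genes, start sites lay mostly in introns, and Trdn, Jph1 and Cacna2d1 supplied most of the intronic ones. Intronic sites made up 78 of 87 in Trdn, 38 of 47 in Jph1 and 28 of 47 in Cacna2d1. They were 13 of 43 in Ryr1, 2 of 10 in Cacna1s, 8 of 17 in Jph2 and 9 of 18 in Asph. Stac3 had 3 of 5, Cacnb1 4 of 4 and Cacng1 1 of 1. By the class codes of the authors, 184 of the 279 sites (65.9%) were intronic (i), against 52% of the 40426 sites assigned to any gene, and 69 (24.7%) were contained in an annotated transcript (c), against 38.6%. A further 18 overlapped an exon and an intron (e), 5 had another exonic overlap (o), 1 lay just outside its gene (p), and 2 were antisense to an exon (x), 1 in Jph1 and 1 in Trdn. Coordinates below are in GRCm38, counted from 1. Intronic sites had a median width of 13 bases and sites of class c of 35 bases, against 7 and 25 bases over all genes.

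The number of sites followed the length of the gene. Trdn had 87 sites over 393 kb, Cacna2d1 47 over 440 kb, Jph1 47 over 156 kb and Ryr1 43 over 122 kb, while Asph had 18, Jph2 17, Cacna1s 10, Stac3 5, Cacnb1 4 and Cacng1 1. Spearman's rho between sites and span was 0.89 and Pearson's r 0.81 across these 10 genes, which share the libraries and are no independent replicates. Having 40 or more sites was shared by 0.427% of all genes, for which the median was 2 sites.

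Single sites were thinly covered. The median site of these genes held 20 reads over all 4 libraries, against 19 for every site in the table, and 146 (52.3%) had over 50% of their normalized reads in 1 library, against 51.4% of all gene sites. Of these 146, 68 were led by KO replicate 1 and 39 by KO replicate 2, while WT replicates 1 and 2 led 10 and 29. This split also ran in the order of the depths, and it was not computed for all gene sites. A site needs 10 reads in all to be listed, which a deeper library reaches more easily. At least 1 read was found at 258 and 242 of the 279 sites in KO and at 179 and 205 in WT, in the order of the depths.

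Per length of the gene, Ryr1 and Trdn had the highest mean levels. The mean over 4 libraries was 6.48 ppm per kb of gene span for Ryr1, 5.66 for Trdn, 4.18 for Stac3, 2.17 for Jph1, 1.45 for Cacnb1, 1.34 for Cacna1s, 0.743 for Cacna2d1, 0.559 for Jph2, 0.335 for Asph and 0.132 for Cacng1. The ranges of each neighbouring pair over the 4 libraries overlapped. Within each of the 4 libraries, however, Trdn was above Stac3, Stac3 above Jph1 and Cacna1s above Cacna2d1, while the other neighbours changed order in at least 1 library. The span counts introns, and on this scale a short gene such as Stac3 (7.21 kb) stands beside long ones.

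Summed per gene, the reads of these genes lay higher in KO for 8 of the 9 tested genes, and the difference passed the test for Cacna2d1 only. With DESeq2 at an adjusted p under 0.1, the threshold of the study, 1 of 9 genes was called, where 2.67% of 4688 genes were called over the whole table. The median log2 fold change of the 9 genes was 0.681, beside 0.0101 for all tested genes, of which 50.5% were higher in KO. Without KO replicate 2, Ryr1 (−0.04) and Asph (−0.17) turned and 6 of the 9 were higher, without WT replicate 2 Cacnb1 (0.36) turned and 9 were higher, and without WT replicate 1 the median was 0.36. In 6 of the 9 genes both KO libraries lay above both WT libraries (22.0% of all tested genes), and in none were both WT libraries above. The genes share the same 4 libraries, and an exact permutation test of 2 against 2 can give no two-sided p below 1 in 3, so these counts were not tested further. Slow fibre markers, 7 of 8 higher in KO, and fibroblast markers, 0 of 12 higher, stood beside them, and their part in the result was not tested.

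**Figure D1:**
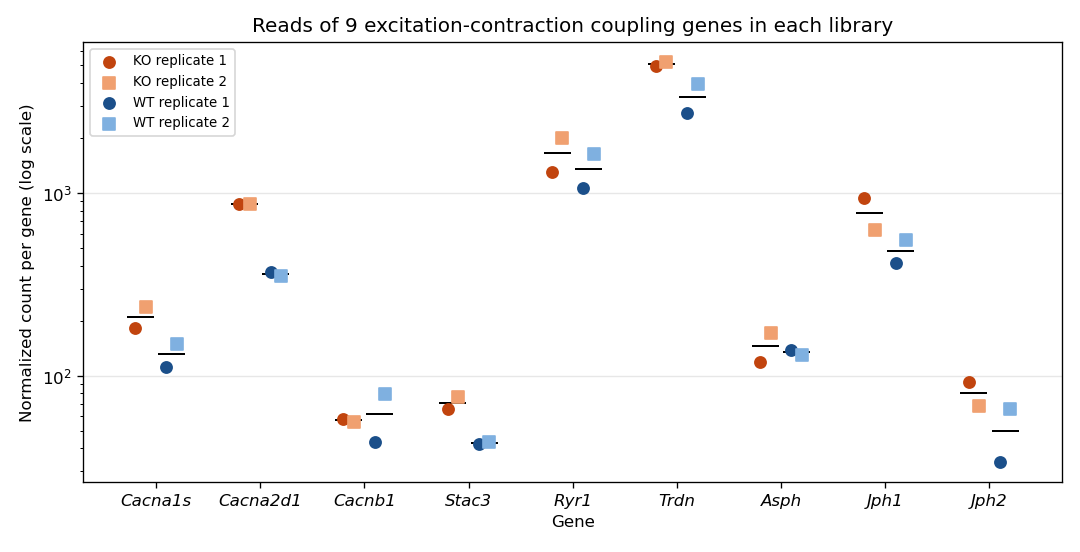
Normalized counts per gene (log axis) of the 9 tested excitation-contraction coupling genes in each of the 4 libraries, with a line at the mean of each group. Trdn lies highest, at 4939 and 5198 in KO, and the 2 groups of Cacna2d1 are the farthest apart, at 872.3 and 872.1 in KO against 368.8 and 352.5 in WT.

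Cacna2d1 encodes the α2δ-1 subunit, an extracellular subunit of the calcium channel that shapes its currents. It lies at 15934264 to 16374511 of chromosome 5, plus strand, and had 28 intronic sites among 47. The sum over its sites came to 872.3 and 872.1 normalized counts for KO replicates 1 and 2, and to 368.8 and 352.5 for WT replicates 1 and 2. Both KO libraries were high, both WT libraries were low, and the groups did not overlap. Cacna2d1 rose 2.42-fold in KO (log2 fold change 1.27, SE 0.41, 95% interval 0.46 to 2.08), with an adjusted p of 0.0872 by DESeq2 and 0.308 by edgeR. Without any 1 of the 4 libraries the log2 fold change was 1.21 to 1.31 and the call was lost (adjusted p from 0.3 without WT replicate 1 to 0.771 without KO replicate 2, by DESeq2).

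The rise of Cacna2d1 was spread unevenly over its sites, and the 2 KO libraries drew it from different ones. Of its sites, 2 were called, both intronic and both higher in KO, and these were the only called sites among the 71 tested sites of the 10 genes, where 2.33% of 11112 tested sites were called higher over the whole table. The site at 16145035 to 16145057 had 23 and 426 reads in KO against 8 and 8 in WT (log2 fold change 4.25 with SE 1.10, adjusted p = 0.0111 by DESeq2). KO replicate 2 held 91.3% of its normalized reads, and without that library the log2 fold change was 0.57 with a DESeq2 adjusted p of 1. The site at 16098109 to 16098115 was high in the other KO library, with 173 and 6 reads in KO against 3 and 0 in WT, a ratio of 35.6 by reads pooled within each group over summed size factors, with an exact counting interval of 12 to 174. DESeq2 gave it an adjusted p of 0.0626, KO replicate 1 held 92.5% of its normalized reads, and without that library its log2 fold change was 1.38 and it was not tested. The edgeR adjusted p was 0.22 for the first site, and the second was not tested by edgeR. Without WT replicate 2 neither was called (0.125 and 0.426 by DESeq2), nor was the second without KO replicate 2 (0.302).

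With the 2 called sites taken out of the sum, Cacna2d1 stood at 752.5 and 494.6 normalized counts in KO against 353.4 and 342.5 in WT. The groups still did not overlap, and the log2 fold change was 0.84 (SE 0.44, adjusted p = 0.549 by DESeq2). Reads of its intronic sites alone gave 1.48 (SE 0.43, adjusted p = 0.0378 by DESeq2, where 2.49% of 3817 genes were called on intronic reads), and reads outside introns gave 0.63 (SE 0.53, adjusted p = 0.998 by DESeq2). These ways of summing were chosen after the data were seen, and each was scaled on its own reads.

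The most abundant Cacna2d1 site, intronic at 16085605 to 16085623, held 25.2% of the reads of the gene. It stood at 298.6 and 135.5 normalized counts in KO against 88.2 and 84.32 in WT (log2 fold change 1.33 with SE 0.69, adjusted p = 0.533 by DESeq2). KO replicate 1 was highest, and both WT libraries were lower than both KO libraries. A further intronic site at 16303168 to 16303219 had 16 and 15 reads in KO and 0 in both WT libraries, at least 3.11-fold higher in KO against the floor of 3 reads per library, and fell below the mean count at which sites were tested. The site nearest to the gene start lay 9086 bases inside.

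**Figure D2:**
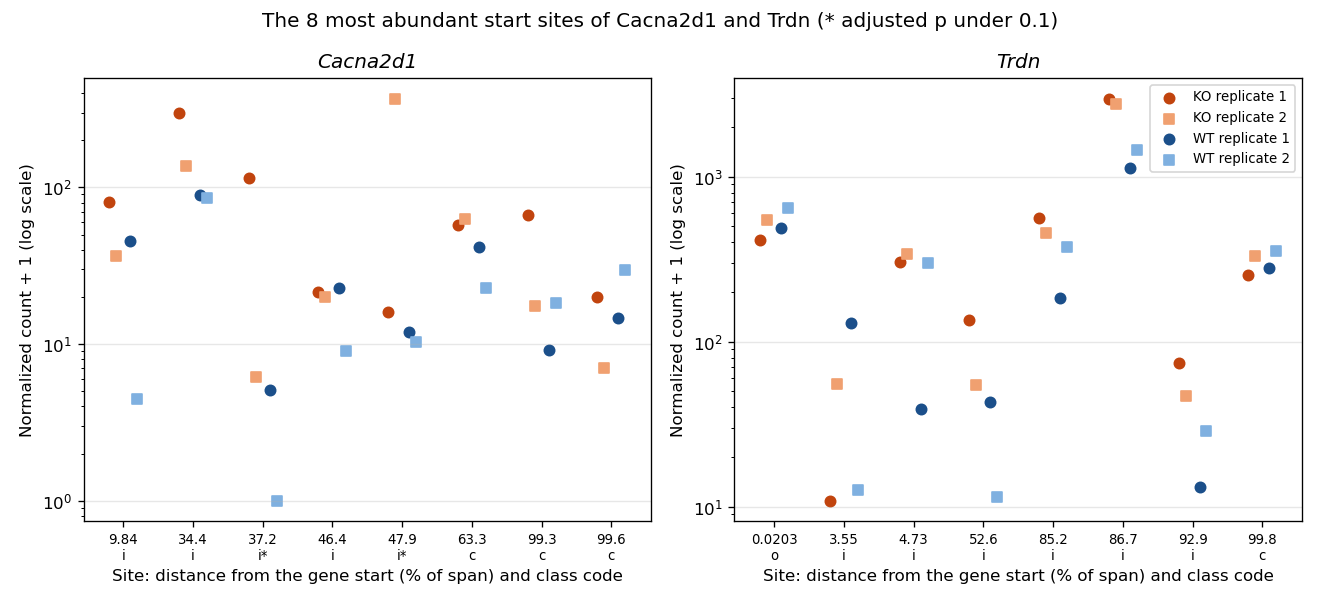
Normalized counts plus 1 (log axis) in each library at the 8 most abundant start sites of Cacna2d1 and of Trdn, ordered by distance from the gene start in percent of the gene span, with the class code under each site and an asterisk at called sites. At both called Cacna2d1 sites 1 KO library stands far above the other 3, while at the most abundant Trdn site, 86.7% along the gene, both KO libraries stand above both WT libraries.

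Cacna1s encodes the pore and voltage sensor itself. It lies at 136052806 to 136119822 of chromosome 1, plus strand, with 10 sites. Its summed count was 181.4 and 238.6 in KO against 112.2 and 149.5 in WT, without overlap of the groups (log2 fold change 0.68 with SE 0.51, adjusted p = 0.816 by DESeq2). The difference did not pass the test.

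Most reads of Cacna1s began late in the gene. The site at 136115900 to 136115953, class e and 94.2% along the span, was one of its pair of most abundant sites, with 50.53 and 75.08 normalized counts in KO against 36.64 and 61.22 in WT, and the groups overlapped. The other, intronic at 136098510 to 136098523, had 63 and 75.08 in KO against 19 and 11.55 in WT (log2 fold change 2.18 with SE 0.90, adjusted p = 0.263 by DESeq2). Both KO libraries were over both WT libraries there, with no call. At 136113277 to 136113289, class c, 26 and 10 reads in KO stood against 0 in both WT libraries, at least 3.41-fold higher in KO against the floor. This site too was singled out for these counts, so the bound is no test. It was below the mean count tested by DESeq2, and edgeR did not test it. The nearest site to the upstream stretch printed for Cacna1s lay 23902 bases into the gene.

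Cacnb1 encodes the β1 subunit, which lies on the inner face of the channel and is needed to bring it to the triad. It was the 1 tested gene of the 9 with a negative log2 fold change, at 58.03 and 55.93 normalized counts in KO against 43.47 and 79.71 in WT (−0.11 with SE 0.68, adjusted p = 0.992 by DESeq2). The WT libraries lay on either side of the KO libraries. All 4 of its sites were intronic (chromosome 11, gene span 98001508 to 98023034, minus strand), and that at 98003778 to 98003878 held 68.5% of its reads, with 41.34 and 30.2 in KO against 39.35 and 54.29 in WT. Its next site, at 98003906 to 98003912, held 13.4%, at 8.531 and 8.63 in KO against 2.714 and 10.4 in WT.

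Cacng1, which encodes the γ1 subunit, a membrane subunit particular to skeletal muscle, was close to undetected. Its 1 site, intronic at 107707911 to 107707942 of chromosome 11 (gene span 107703218 to 107716476, minus strand), had 11 reads in WT replicate 2 and 0 in the other 3 libraries, and it was not tested. At this site a count of 0 allows up to 1.03 and 1.3 ppm in the KO libraries and 2.31 ppm in WT replicate 1. This does not bound the gene, since sites with under 10 reads in all are not listed.

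Stac3, the adaptor between sensor and release channel, had 5 sites in a short gene (127501617 to 127508823 of chromosome 10, plus strand). Its summed count was 65.36 and 76.9 in KO against 42.07 and 43.59 in WT, without overlap (log2 fold change 0.73 with SE 0.67, adjusted p = 0.903 by DESeq2). The intronic site at 127504424 to 127504427 held 75% of the reads, with 52.5 and 63.86 in KO against 33.92 and 18.48 in WT (1.15 with SE 0.88, adjusted p = 0.909 by DESeq2). Its second site by mean count, at 127503172 to 127503229 (class c), had 3 and 9 reads in KO against 2 and 6 in WT. The listed Stac3 site nearest to the gene start lay 383 bases inside.

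Ryr1 encodes the calcium release channel of the sarcoplasmic reticulum. It lies at 29003340 to 29125179 of chromosome 7, minus strand, and stood at 1311 and 1995 normalized counts in KO against 1070 and 1645 in WT, with overlapping groups (log2 fold change 0.28 with SE 0.44, adjusted p = 0.955 by DESeq2). The spread within each group was wider than the distance between their means. Of its reads 6.14% began in introns, the lowest share of the 10 genes, with 9.97% and 3.99% in KO against 5.24% and 4.16% in WT.

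A single Ryr1 site, class e at 29083472 to 29083665 and 34.1% along the gene, held 45% of the reads. It stood at 593.3 and 948.4 normalized counts in KO against 447.8 and 694.2 in WT (log2 fold change 0.43 with SE 0.59, adjusted p = 1 by DESeq2), and the groups overlapped. The second site, class c at 29093926 to 29094150, had 97.78 and 200.2 in KO against 56.99 and 168.6 in WT, also overlapping. With Ryr1 cut into 3 equal parts from its start, the parts held 20.2%, 65% and 14.8% of its reads, and this leading site lies just past the first boundary. The site nearest to the gene start lay 7302 bases inside, and no listed site overlapped the stretch printed for Ryr1.

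Trdn encodes triadin, which spans the sarcoplasmic reticulum membrane and binds both calsequestrin and RYR1. It lies at 33083483 to 33476709 of chromosome 10, plus strand, and had 78 intronic sites among 87. The summed count was 4939 and 5198 in KO against 2761 and 3947 in WT, without overlap (log2 fold change 0.60 with SE 0.40, adjusted p = 0.744 by DESeq2). Both KO libraries were high and WT replicate 1 was lowest, yet the difference did not pass the test.

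The reads of Trdn were divided between its 2 ends: with the gene cut into 3 equal parts from its start, the parts held 23.2%, 3.59% and 73.2%. Its leading site, intronic at 33424194 to 33424238, held 51.2% of the reads. It stood at 2982 and 2746 normalized counts in KO against 1128 and 1447 in WT (log2 fold change 1.15 with SE 0.54, adjusted p = 0.406 by DESeq2), and both KO libraries lay above both WT libraries. The second site, class o at 33083466 to 33083646, spans the annotated start of the gene and stood at 410.8 and 545.4 in KO against 489.9 and 649.2 in WT (−0.25 with SE 0.57, adjusted p = 1 by DESeq2), with overlapping groups.

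The share of Trdn reads at its annotated start was lower in both KO libraries. For the KO libraries it was 7.74% (Wilson 95% interval 7.18 to 8.34) and 10.6% (9.87 to 11.4), and for the WT libraries 18.3% (16.7 to 20.1) and 17.7% (16.4 to 19.1). The 2 groups did not overlap. Reads outside introns gave a log2 fold change of −0.05 (SE 0.44, adjusted p = 0.998 by DESeq2) and intronic reads 0.56 (SE 0.43, adjusted p = 0.84 by DESeq2). Each of these fits was scaled on its own reads, so the values cannot be set directly against each other. In the test of start site use across the gene Trdn was not called (adjusted p = 1 by the Simes test of edgeR).

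Asph encodes junctin and junctate of the triad and, from the same locus, the enzyme aspartate β-hydroxylase, so its reads cannot be given to 1 product. It lies at 9449085 to 9669344 of chromosome 4, minus strand, and stood at 118.5 and 172.1 normalized counts in KO against 138.8 and 129.5 in WT (log2 fold change 0.11 with SE 0.53, adjusted p = 0.992 by DESeq2). The WT libraries lay between the KO libraries. Its 2 most abundant sites were both class c: that at 9643641 to 9643705 had 32 and 43 reads in KO against 13 and 29 in WT, and that at 9621652 to 9621673 had 11 and 7 in KO against 44 and 0 in WT, so that WT replicate 1 alone set its mean.

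Jph1 encodes junctophilin 1, the main junctophilin of skeletal muscle. It lies at 16942104 to 17097922 of chromosome 1, minus strand, with 38 intronic sites among 47. The summed count was 934.6 and 629.2 in KO against 413.7 and 553 in WT, without overlap (log2 fold change 0.69 with SE 0.44, adjusted p = 0.708 by DESeq2). KO replicate 1 was the highest library, and the distance of KO replicate 2 from WT replicate 2 was small beside the spread within KO.

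Of the Jph1 reads, 70% began in the first of 3 equal parts of the gene. The intronic site at 17064517 to 17064533, with 26.8% of the reads, stood at 328.1 and 134.6 normalized counts in KO against 61.06 and 116.7 in WT (log2 fold change 1.38 with SE 0.72, adjusted p = 0.55 by DESeq2). The next, class c at 17091507 to 17091726, stood at 131.3 and 140.7 in KO against 135.7 and 158.2 in WT (−0.11 with SE 0.64, adjusted p = 1 by DESeq2). The first had both KO libraries above both WT libraries and the second had overlapping groups. A class c site 82 bases from the gene start, at 17097749 to 17097840, had 6 and 10 reads in KO against 2 and 7 in WT.

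Jph2 encodes junctophilin 2, known best from heart and also present in skeletal muscle. It lies at 163336242 to 163398049 of chromosome 2, minus strand, with 8 intronic sites among 17, and stood at 92.23 and 68.16 normalized counts in KO against 33.65 and 66.01 in WT (log2 fold change 0.68 with SE 0.68, adjusted p = 0.911 by DESeq2). KO replicate 2 and WT replicate 2 were nearly level. The intronic site at 163396180 to 163396319 had 7 and 12 reads in KO against 7 and 17 in WT, and that at 163344119 to 163344128 had 16 and 3 in KO against 2 and 4 in WT. A site of 15 reads at 163397930 to 163397969 lay 4 bases from a start that RefSeq gives for Jph2 at 163397973, downstream of the stretch printed above, with 2 and 6 reads in KO against 1 and 6 in WT.

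**Figure D3:**
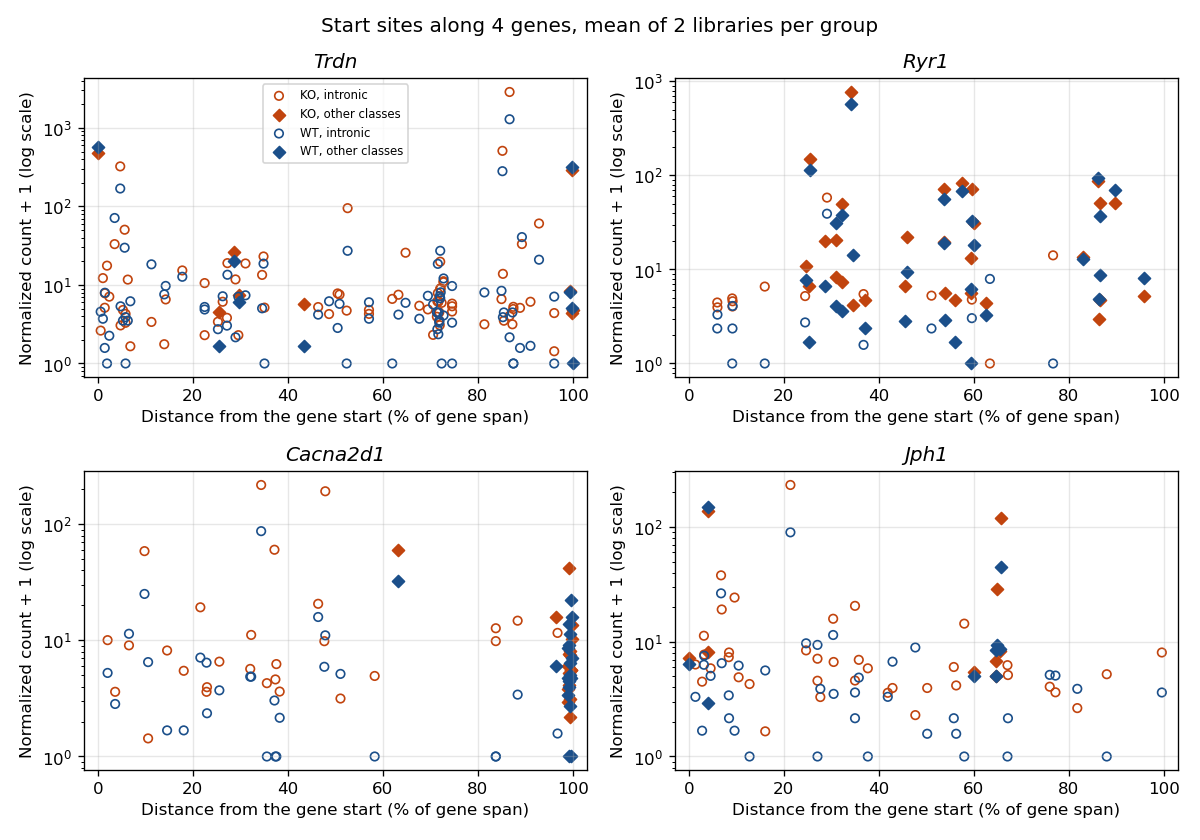
Start sites of Trdn, Ryr1, Cacna2d1 and Jph1 by distance from the gene start (% of gene span) and mean normalized count plus 1 of each group (log axis), with open circles for intronic sites and filled diamonds for the other classes. Trdn reads gather at 86.7% and at the start of the gene, Ryr1 reads at 34.1%, and the strongest Cacna2d1 and Jph1 sites are intronic.

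Across the 10 genes, 6.56% of reads began within 100 bases of the gene start, and Trdn, Jph1 and Jph2 were the genes with a site there. The share was 4.52% and 6.08% in KO against 10.2% and 10.3% in WT, and with a window of 500 bases 6.66% overall. Trdn supplied most of these reads. In the remaining 7 genes the nearest site lay from 383 bases (Stac3) to 25559 bases (Asph) from the start of the RefSeq gene span. Cacnb1 has a further RefSeq start inside its span, at 98018372, and a site of 33 reads lay 298 bases from it.

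The share of reads in introns also separated the libraries. Over the 10 genes it was 70% and 60.4% in KO against 51.8% and 51% in WT, while over all nuclear genes it was 38.7% and 30.3% in KO against 35.3% and 27.7% in WT, where the groups overlapped. Trdn held 56.7% of the reads of the 10 genes, so the pooled share and its distance from all nuclear genes rest largely on Trdn. Ryr1, with 19.2% of the reads, had 9.97% and 3.99% in KO against 5.24% and 4.16% in WT, below the nuclear genes in every library. Among single genes, both KO libraries exceeded both WT libraries in Cacna1s, Cacna2d1, Trdn and Asph. The share of all genes with this order was not computed, so whether it is unusual was not tested. In Cacna2d1 the shares were 75.8% and 79.1% in KO against 64.3% and 50.5% in WT, and in Trdn 86.9% and 81.4% in KO against 70.6% and 71% in WT. Jph1, Jph2, Stac3 and Ryr1 had overlapping groups, and reads of Cacnb1 and Cacng1 were all intronic.

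**Figure D4:**
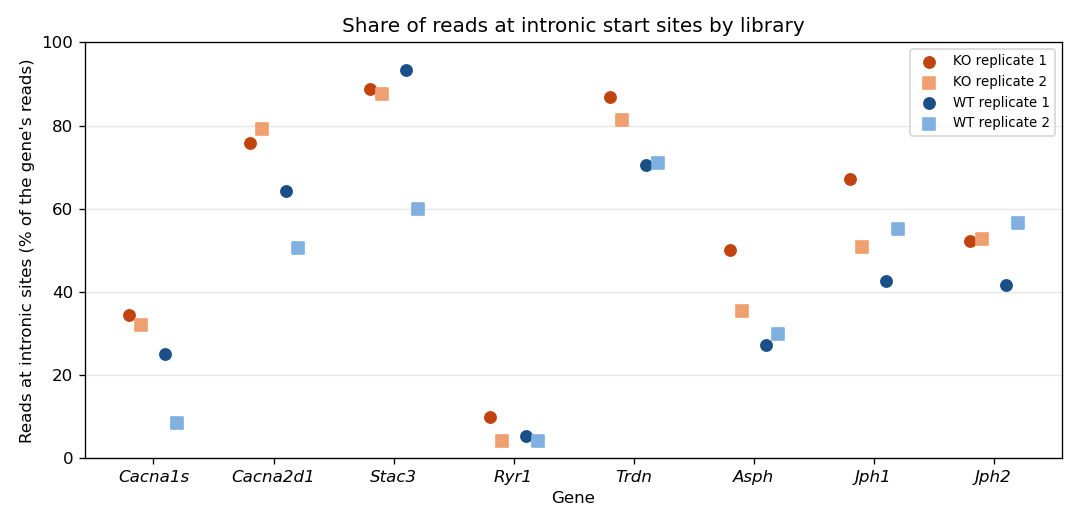
Share of the reads of each gene that began at intronic sites (%), in each of the 4 libraries, for the 8 genes with both intronic and other sites. Ryr1 stays under 10% in every library, while Trdn runs from 70.6% to 86.9% with both KO libraries on top.

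Sites were then counted one by one. Of the 71 tested sites of these genes, 51 (71.8%) were higher in KO, beside 53.5% of all tested sites, and their median log2 fold change was 0.514, beside 0.0965. In 27 of the 71, both KO libraries lay above both WT libraries, where 23.0% of all tested sites did so. The 38 intronic sites had a median of 0.819 with 27 higher (all intronic sites, 0.421 with 64.1% higher), and the 33 others had a median of 0.363 with 24 higher (all others, −0.138 with 43.3% higher). Intronic sites thus stood higher in KO over the whole table as well. Sites of 1 gene share its RNA and are no replicates of a condition.

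**Figure D5:**
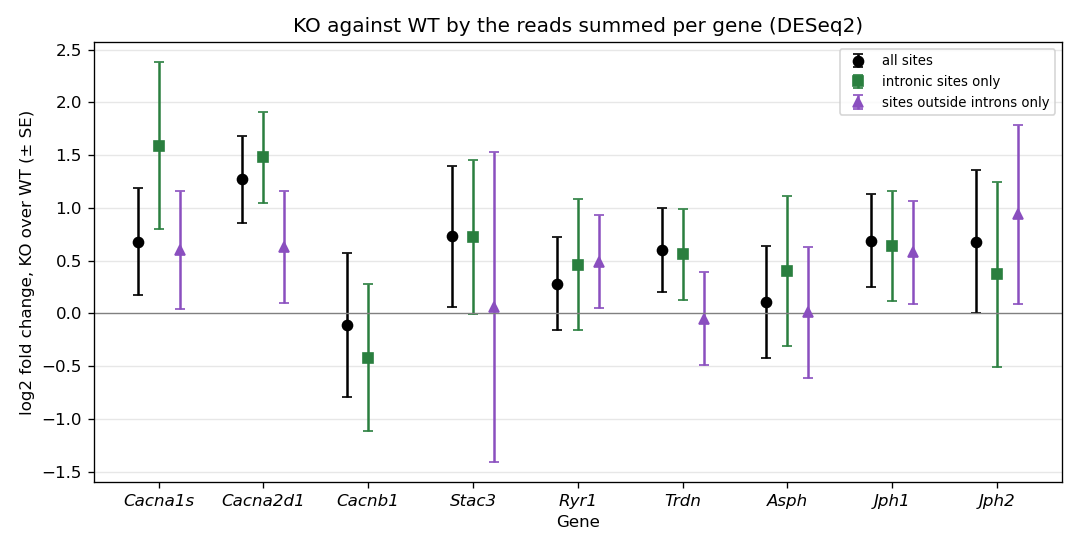
Log2 fold change of KO over WT (± SE, DESeq2) for 9 genes by all reads, by intronic reads and by reads outside introns, each scaled on its own reads. Cacna2d1 has 1.27, 1.48 and 0.63 in this order, Trdn 0.60, 0.56 and −0.05, and Cacnb1 has no sites outside introns.

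Whether the genotypes used the start sites of a gene in different proportions was tested with diffSpliceDGE of edgeR, which sets each site against the rest of its gene. Of the 10 genes, 6 had at least 2 sites that passed the filter (Ryr1 16 sites, Trdn 23, Cacna2d1 14, Jph1 6, Asph 6, Cacna1s 3). The called Cacna2d1 site at 16098109 did not pass it, so the test did not cover that site. None was called by the Simes test of edgeR (adjusted p = 1 in each), where 1.37% of 2184 genes were called, and none had an unadjusted p under 0.05, the smallest being 0.261 for Cacna2d1. By the F test of edgeR the adjusted p ran from 0.637 to 0.999.

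Other genes of the same pathway were listed beside the 10, namely calcium store proteins, other subunits and family members, calmodulins, triad and tubule proteins and pumps. Of 55, 44 had at least 1 site, and 11 had none among the sites analysed here and count as not detected (Jph3, Jph4, Cacna2d2, Cacna2d3, Cacnb3, Cacng6, Cacng7, Stac, Stac2, Fkbp1b and Cav3). Of the 32 tested, 1 was called higher in KO and 0 lower, beside 2.67% of all genes in either direction, 20 had a higher value in KO, and the median log2 fold change was 0.15. In 7 both KO libraries were above both WT libraries, a share like the 22.0% of all genes, and in 2 both WT libraries were above.

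Tmem38b, which encodes the TRIC-B cation channel of the sarcoplasmic reticulum, was the gene called. It had 120 and 24 reads in KO against 2 and 0 in WT, a ratio of 39.2 by pooled reads over summed size factors, with an exact counting interval of 10.7 to 327, and an adjusted p of 0.0234 by DESeq2 and 0.092 by edgeR. Most of its reads lay at a class c site at 53861243 to 53861244 of chromosome 4, with 107 and 21 in KO against 1 and 0 in WT (DESeq2 adjusted p = 0.0441). KO replicate 1 was the highest at both of its sites. The log2 fold change of Tmem38b fitted by DESeq2 was 5.13 with all libraries and 7.69 without WT replicate 1. It was 4.05 without WT replicate 2, where the call was lost (adjusted p = 0.292 by DESeq2), and 3.94 without KO replicate 1, where the gene was not tested.

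The 5 most abundant tested genes of the list had small fold changes. Atp2a1, the fast fibre calcium pump, stood at 9938 and 8433 normalized counts in KO against 7959 and 10549 in WT (log2 fold change −0.01 with SE 0.40, adjusted p = 0.996 by DESeq2). Hrc, a calcium-binding protein of the store, had −0.22 (SE 0.45), Pde4d, a cAMP phosphodiesterase, −0.08 (SE 0.39), Srl, which encodes sarcalumenin, 0.10 (SE 0.41), and Camk2d, a calmodulin-dependent kinase, 0.14 (SE 0.48), with DESeq2 adjusted p of 0.983 to 0.992. In all 5 the groups overlapped.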

How the data were processed

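WTSS-seq of gastrocnemius RNA gave 1 table of raw read counts, deposited by the authors, with a row per start site and a column per library. Labels give GRCm38.p5 as the genome build. Aligner and clustering settings for 5′ ends are not given in the sources used here, and each site has at least 10 reads in all. Groups came from the labels, with 2 animals per group by the methods. A closing line of column totals was left out. Sites, and counts summed per gene symbol, were compared by the Wald test of DESeq2 1.42.0 (R 4.3.3, median of ratios, Benjamini-Hochberg adjusted p under 0.1), on all 4 libraries without covariates. Independent filtering left untested the sites with a mean normalized count under 8.76 and genes under 16.5. The quasi-likelihood test of edgeR 4.0.16 was the alternative, and diffSpliceDGE tested start site use. Scripts were tested on simulated data. Values in ppm are per 1000000 reads of a library.

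All sites of the 10 genes were counted. Sites described singly were called sites, the 2 highest by mean normalized count per gene, any nearest the gene start within 100 bases, and those with 0 reads in 1 group and at least 10 in each library of the other. Other genes of the pathway were named if called or among the 5 most abundant. The members, lists and rules were chosen with earlier results of these data known. Upstream sequences and gene spans are RefSeq's (GRCm38.p6). Of the 10 genes, Cacna1s, Cacna2d1, Cacnb1, Jph2 and Ryr1 matched the promoter table.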

Additional observations from a re-analysis of the deposited data

How the results depend on the processing

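Of the 10 genes, 1 was called, and this stayed 1 with TMM size factors (Cacna2d1, adjusted p = 0.0995) and with intronic reads alone. It fell to 0 at an adjusted p under 0.05, with no filter, with at least 10 reads in 2 libraries, with edgeR, and, as alternatives chosen after seeing the data, with scaling by library totals, with reads outside introns and without the 2 called Cacna2d1 sites. Leaving out any 1 library gave 0 to 0. The DESeq2 adjusted p of Cacna2d1 was 0.0995 to 0.159 under the alternatives on all its reads other than edgeR, and 0.3 to 0.771 with 1 library left out, while its log2 fold change stayed at 1.21 to 1.31. The cause was not tested.

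The 2 called sites became 1 at the 0.05 threshold, with no filter and with the minimum of 10 reads, 0 with edgeR (5 sites at an unadjusted p under 0.05), and 0 to 2 with 1 library left out. The partner gene called (1) ran from 0 to 1. The replicate block gave 0 called genes and 1 called site, and the numbers were not taken to pair the libraries (correlation of deviations 0.0699 over 10728 sites, 2 pairs). Without a library the median log2 fold change of 0.68 ran from 0.36 (without WT replicate 1) to 0.85, and 0 genes changed start site use. Signs turned for Ryr1 (−0.04, highest 0.60) and Asph (−0.17, highest 0.37) without KO replicate 2, Cacnb1 (0.36, lowest −0.48) without WT replicate 2 and Trdn (−0.05) outside introns. That Trdn fit was scaled on its own reads. A group left with 1 library is assumed to vary like the other. Shallow WT libraries limit sites near 3 reads.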
